A study of Homo sapiens with 26 samples.

Results

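The clustered protocadherins are cell adhesion genes that stand in 3 neighbouring groups on human chromosome 5. They were taken as the protein-coding genes of chromosome 5 whose symbols are PCDHA, PCDHB, PCDHGA, PCDHGB, PCDHGC or PCDHAC followed by a number, which gave 53 of 20163 protein-coding genes. The alpha cluster holds 15 of them (PCDHA1 to PCDHA13, PCDHAC1 and PCDHAC2), the beta cluster 16 and the gamma cluster 22, of which 12 are PCDHGA, 7 PCDHGB and 3 PCDHGC genes. All lie on the plus strand, and in hg19 coordinates they run from base 140165721 to base 140892544, over 726.8 kb. With 20 kb added on either side the region measured 766.8 kb, and 58 of the 399567 peaks in 5 peak lists overlapped it.

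Clustered protocadherins are cadherin-like membrane proteins best known from neurons, where different cells carry different sets of them and cells with matching sets recognise one another. In the alpha and gamma clusters each gene has its own promoter and a large first exon, called the variable exon, which is spliced to constant exons shared by the whole cluster, while beta genes have no constant exons. Promoter choice is known to involve the DNA-binding protein CTCF and the cohesin ring, and PCDHAC1, PCDHAC2 and the PCDHGC genes form the C type, whose expression is less variable from neuron to neuron.

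The peaks come from chromatin immunoprecipitation and sequencing (ChIP-seq), which maps where a protein sits on DNA, in BJ fibroblasts, a human cell line derived from foreskin. HALO-tagged proteins were expressed ectopically for 48 hours and precipitated with an antibody to the tag. The proteins were FOXA1, a forkhead transcription factor that the series title calls a pioneer factor, 3 FOXA1 forms labelled FOXA1dbd, FOXA1nhaa and FOXA1rraa, and HNF4A, a nuclear receptor transcription factor. The labels do not say what the dbd, nhaa and rraa forms change. They list 2 ChIP and 2 input libraries for each protein but the processed data used here are 1 peak list per protein, so no difference between lists could be set against replicate error and no test was made. All intervals are 95% intervals that cover counting error only and no read depth is known for any list.

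The FOXA1rraa list is made largely of rows of other lists. Of its 71202 peaks, 23217 have the coordinates of a FOXA1 row and 41253 are FOXA1nhaa rows. The other 6733 match neither list and are called its own here. In the protocadherin region 3 of its 8 peaks were FOXA1 rows, 4 were FOXA1nhaa rows and 1 was its own. The name of that peak in the list begins with Nonspecific_FOX, as do the names of 6733 peaks of the whole list. The list does not say what the name means, so its own peaks are not taken as binding particular to this form. The overlap of FOXA1rraa with FOXA1nhaa is therefore fixed by shared rows. Its overlap with FOXA1 is so only in part, since FOXA1 overlaps 61806 of its peaks. The peak of its own is given separately.

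The region held 22 of the 155652 FOXA1 peaks, 6 of the 28831 FOXA1dbd peaks, 10 of the 105591 FOXA1nhaa peaks, 8 of the 71202 FOXA1rraa peaks and 12 of the 38291 HNF4A peaks. Merging peaks that touch gave 38 sites, of which 28 were in 1 list, 3 in 2 lists, 5 in 3 lists, 1 in 4 lists and 1 in all 5 lists. Single-list sites were 73.7% of the sites here and 61.2% of the 239920 sites of the genome merged in the same way. FOXA1rraa rows taken from another list add a list to a site by construction, both here and in the genome. The sequences of the sites on which the description turns are shown first, on the plus strand of GRCh37 (hg19), 5′ to 3′, at most 200 bases around the peak centre. They are the site in all 5 lists, the site in 4 lists, and the highest-scoring peaks of the FOXA1nhaa and HNF4A lists in the region. A FOXA1dbd peak with a pair of forkhead cores and the FOXA1 peak nearest to a gamma gene start were added after their values were seen. The highest-scoring FOXA1 and FOXA1rraa peaks lie in annotated untranslated regions (UTRs) and are not printed. Capitals mark the forkhead core, TATTTAC or TGTTTAC on either strand (GTAAATA or GTAAACA when read on the plus strand).
Five-list site, FOXA1dbd peak (chr5:140900861-140901060): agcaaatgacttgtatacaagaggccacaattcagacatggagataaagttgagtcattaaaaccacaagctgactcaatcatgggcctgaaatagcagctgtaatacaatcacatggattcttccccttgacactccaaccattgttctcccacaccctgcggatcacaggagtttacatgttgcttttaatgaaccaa
Four-list site, FOXA1dbd peak (chr5:140912391-140912590): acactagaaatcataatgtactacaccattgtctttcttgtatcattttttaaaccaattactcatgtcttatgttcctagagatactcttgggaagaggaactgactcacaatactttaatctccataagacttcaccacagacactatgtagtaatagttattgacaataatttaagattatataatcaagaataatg
FOXA1nhaa peak before PCDHGB6 (chr5:140786422-140786621): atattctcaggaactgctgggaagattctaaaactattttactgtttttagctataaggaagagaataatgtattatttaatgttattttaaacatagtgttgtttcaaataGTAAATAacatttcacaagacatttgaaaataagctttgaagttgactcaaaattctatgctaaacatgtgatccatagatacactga
HNF4A peak before PCDHGC5 (chr5:140867395-140867594): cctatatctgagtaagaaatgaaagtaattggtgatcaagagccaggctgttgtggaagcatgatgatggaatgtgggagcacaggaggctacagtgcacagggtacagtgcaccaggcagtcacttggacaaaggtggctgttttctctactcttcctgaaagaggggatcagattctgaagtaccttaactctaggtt
FOXA1dbd peak between PCDHGA12 and PCDHGC3 (chr5:140840167-140840361): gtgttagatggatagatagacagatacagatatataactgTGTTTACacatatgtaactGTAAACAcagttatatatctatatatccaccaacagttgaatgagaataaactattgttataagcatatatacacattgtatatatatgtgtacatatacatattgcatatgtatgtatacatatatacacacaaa
FOXA1 peak before PCDHGB4 (chr5:140766931-140767101): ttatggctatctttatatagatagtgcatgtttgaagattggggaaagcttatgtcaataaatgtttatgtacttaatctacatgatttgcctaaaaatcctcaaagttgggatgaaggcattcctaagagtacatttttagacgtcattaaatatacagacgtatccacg

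Of these 6 stretches, the FOXA1nhaa peak before PCDHGB6 and the FOXA1dbd peak between PCDHGA12 and PCDHGC3 hold a core. In the latter, a TGTTTAC and a GTAAACA face each other 12 bases apart, within a stretch rich in A and T. Neither site found in 4 or 5 lists holds the core in the bases shown.

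Peaks were spread unevenly along the 3 clusters. Counted by peak centre over all 5 lists, 37 of the 58 peaks lay in the gamma cluster, 4 in the beta cluster and 2 in the alpha cluster. The 3 clusters span 182, 198 and 226 kb in that order. Altogether 8 peaks lay before the first gamma gene and 50 from there on, including the flank after the cluster. The 50 include 3 FOXA1 rows and 4 FOXA1nhaa rows that count again as FOXA1rraa peaks. They also count peaks of different lists at the same site separately, whereas each of the 8 is a site of its own.

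**Figure D1:**
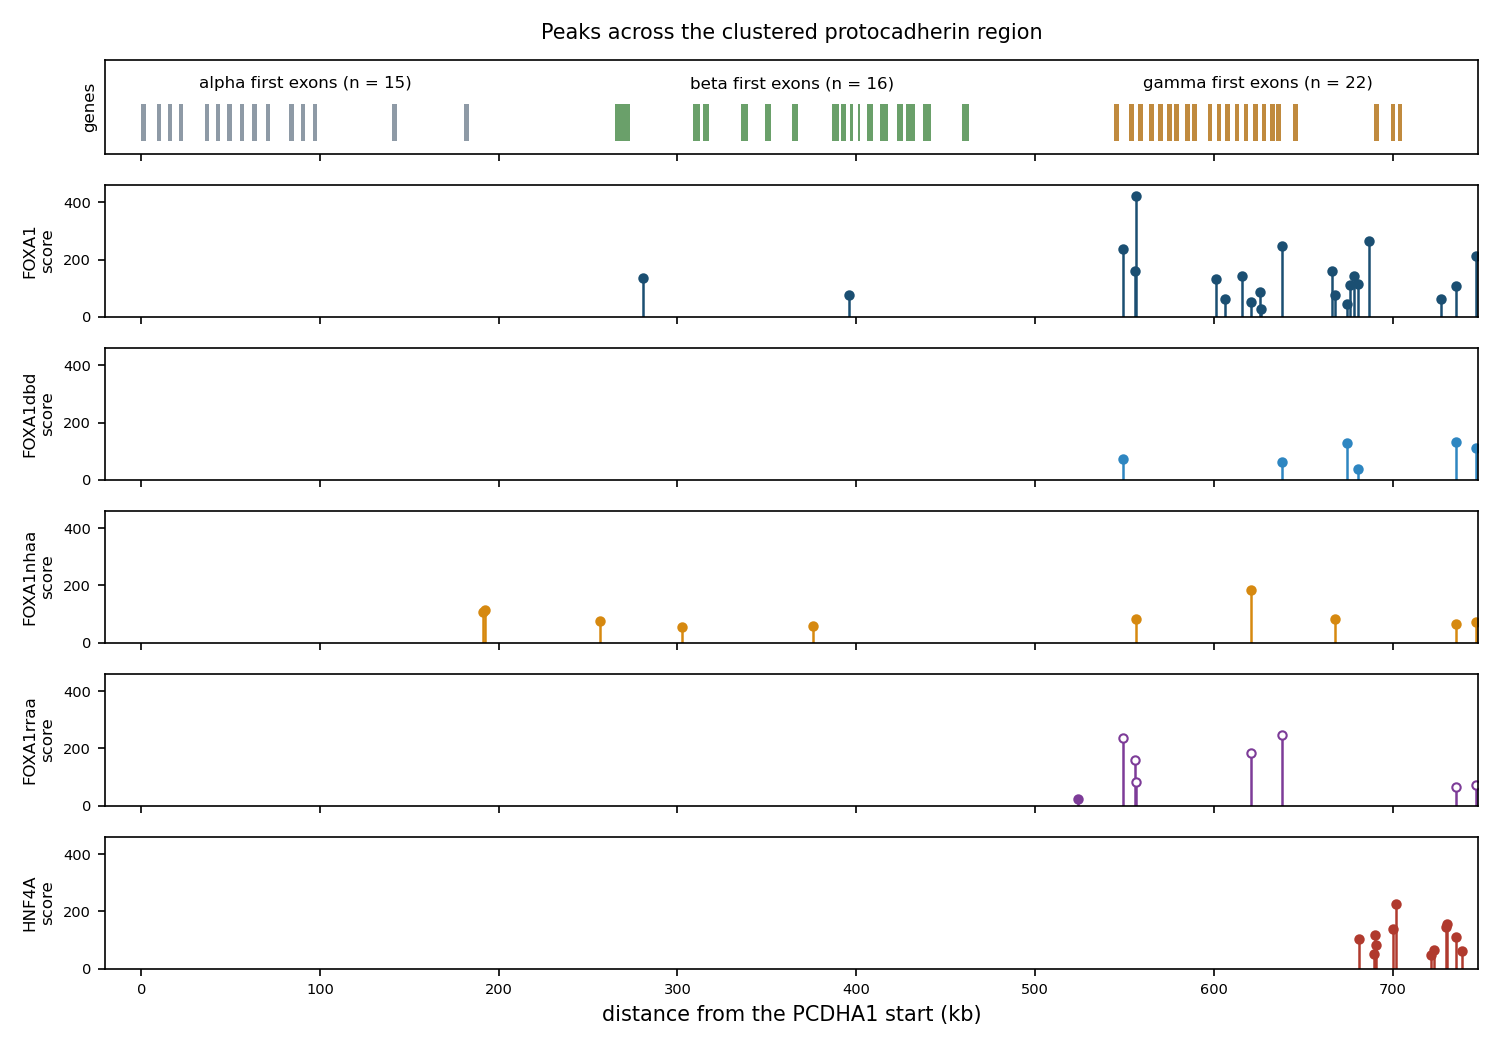
Peaks of the 5 lists across the clustered protocadherin region. The x axis is the distance from the PCDHA1 start in kb, boxes in the top row are first exons, and each stem is 1 peak at its centre with the score of its list as height. Open circles in the FOXA1rraa row are rows that it shares with the FOXA1 or FOXA1nhaa list. Stems are rare over the alpha and beta first exons and most lie from the gamma cluster on.

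Over the whole region the FOXA1 list had 28.7 peaks per Mb (18.0 to 43.4), against 54.4 per Mb of the genome, a ratio of 0.527 (0.330 to 0.798). The ratio was 0.353 (0.169 to 0.649) for FOXA1nhaa and 0.419 (0.181 to 0.825) for FOXA1rraa. For these 3 lists the interval of the ratio lay below 1. That did not hold for FOXA1 at a smaller list size: the down-sampled FOXA1 list, which has as many peaks as the HNF4A list, had 8 peaks in the region, or 10.4 per Mb (4.50 to 20.6) against 13.4 in the genome, a ratio of 0.779. The ratio was 0.776 (0.285 to 1.69) for FOXA1dbd and 1.17 (0.604 to 2.04) for HNF4A, and both intervals include 1. Low counts were common in the genome. Among 3430 consecutive windows of the region's length on the autosomes, 32.0% held at most as many FOXA1 peaks as the region, and the share was 65.3% for HNF4A, 47.1% for FOXA1dbd, 30.1% for FOXA1rraa and 24.3% for FOXA1nhaa.

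Peaks in the region had scores close to those of their lists for FOXA1 and HNF4A. The score is the peak caller's own value for each peak and ranks peaks within a list only. The median score was 124 in the region and 124 in the whole FOXA1 list, and 108 against 99.0 for HNF4A. It was 92.0 against 61.0 for FOXA1dbd, 77.5 against 89.0 for FOXA1nhaa and 120 against 106 for FOXA1rraa. Both FOXA1rraa medians rest largely on rows of the FOXA1 and FOXA1nhaa lists. The highest scores were 424 in the FOXA1 list, 248 in FOXA1rraa, 225 in HNF4A, 183 in FOXA1nhaa and 132 in FOXA1dbd. The FOXA1 peak stood above 97.6% of its whole list, so the strongest site of the region was also a high site genome-wide. The highest FOXA1rraa peak is a FOXA1 row at chr5:140803554-140804196, 2940 bp after the start of PCDHGA11 and in a UTR of that gene.

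The alpha cluster, which runs from PCDHA1 to the shared constant exons over 226 kb, held no peak of FOXA1, FOXA1dbd, FOXA1rraa or HNF4A. Empty stretches of this length are frequent: of 11696 windows of 226 kb, 19.3% held no FOXA1 peak, 30.5% no FOXA1dbd peak, 24.2% no FOXA1rraa peak and 35.7% no HNF4A peak. The FOXA1 list had no peak over 337 kb around the alpha genes, from base 140109558 to base 140446436, and 695 of its 3057 peak-free stretches of at least 100 kb were as long or longer. In the HNF4A list the stretch without peaks was 755 kb and took in all alpha and beta genes. It also took in the starts and first exons of 19 gamma genes, whose records run on past it. Of its 5492 such stretches, 493 were as long or longer. The alpha cluster is therefore empty in 4 lists, but in a genome where such emptiness is common.

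FOXA1nhaa had the only 2 peaks of the alpha cluster. They lie 10264 and 11716 bp after the start of PCDHAC2, the last gene before the constant exons and a C-type member, at chr5:140356319-140357020 and chr5:140357771-140358240, in no coding sequence or UTR. Their scores were 106 and 113, above 62.8% and 66.1% of the FOXA1nhaa list, and their fold enrichments, which are also the peak caller's, were 6.49 and 6.93. Neither overlapped a peak of another list. Of the windows of this length, 29.5% held at most 2 FOXA1nhaa peaks.

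The beta cluster held 2 FOXA1 peaks and 2 FOXA1nhaa peaks over 198 kb, and none of the other 3 lists. The FOXA1 peak with the higher score, 136, lies at chr5:140446437-140446787, 15478 bp after the start of PCDHB1 and 27404 bp before the next beta gene. The other, with a score of 75, lies at chr5:140561513-140561848 and ends 114 bp before PCDHB16. The FOXA1nhaa peaks had scores of 53 and 59 and lie 5722 bp before PCDHB2 and 10628 bp before PCDHB7. None of the 4 beta peaks was shared between lists. The 39.0 kb between alpha and beta held 1 FOXA1nhaa peak, with a score of 74, and the 81.1 kb between beta and gamma held the single FOXA1rraa peak that is not a row of another list. That peak scored 23 with a 2.54-fold enrichment, and only 0.0983% of FOXA1rraa peaks had a lower score. Most FOXA1rraa peaks are rows of other lists, so this is no rank among the 6733 rows of its own.

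In the gamma cluster, over 182 kb, there were 17 FOXA1 peaks, 4 FOXA1dbd, 3 FOXA1nhaa, 5 FOXA1rraa and 8 HNF4A peaks. FOXA1 reached 93.2 peaks per Mb there, against 54.4 in the genome, and HNF4A 43.8 against 13.4. Of 14531 windows of this length, 25.9% held at least as many FOXA1 peaks, 20.9% at least as many FOXA1dbd peaks, 66.3% at least as many FOXA1nhaa peaks, 41.3% at least as many FOXA1rraa peaks and 9.24% at least as many HNF4A peaks. FOXA1nhaa was thus no denser in the gamma cluster than in most of the genome, while for HNF4A fewer than 1 in 10 such windows were as full.

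Within the gamma cluster most FOXA1 and HNF4A peaks lay in different parts. The stretch from the PCDHGA1 start to the end of the PCDHGA12 first exon held 10 FOXA1 peaks (97.4 per Mb) and no HNF4A peak. It spans 103 kb with the first exons of all 19 PCDHGA and PCDHGB genes. The 42.8 kb between PCDHGA12 and PCDHGC3 hold no start of a member and had 7 FOXA1 peaks (164 per Mb) and 1 HNF4A peak. The last 37.0 kb, from PCDHGC3 to the constant exons, held no FOXA1 peak and 7 HNF4A peaks (189 per Mb). No FOXA1dbd, FOXA1nhaa or FOXA1rraa peak lay there either. The difference between the parts was not tested, since the parts were cut along the genes and each list was available once.

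**Figure D2:**
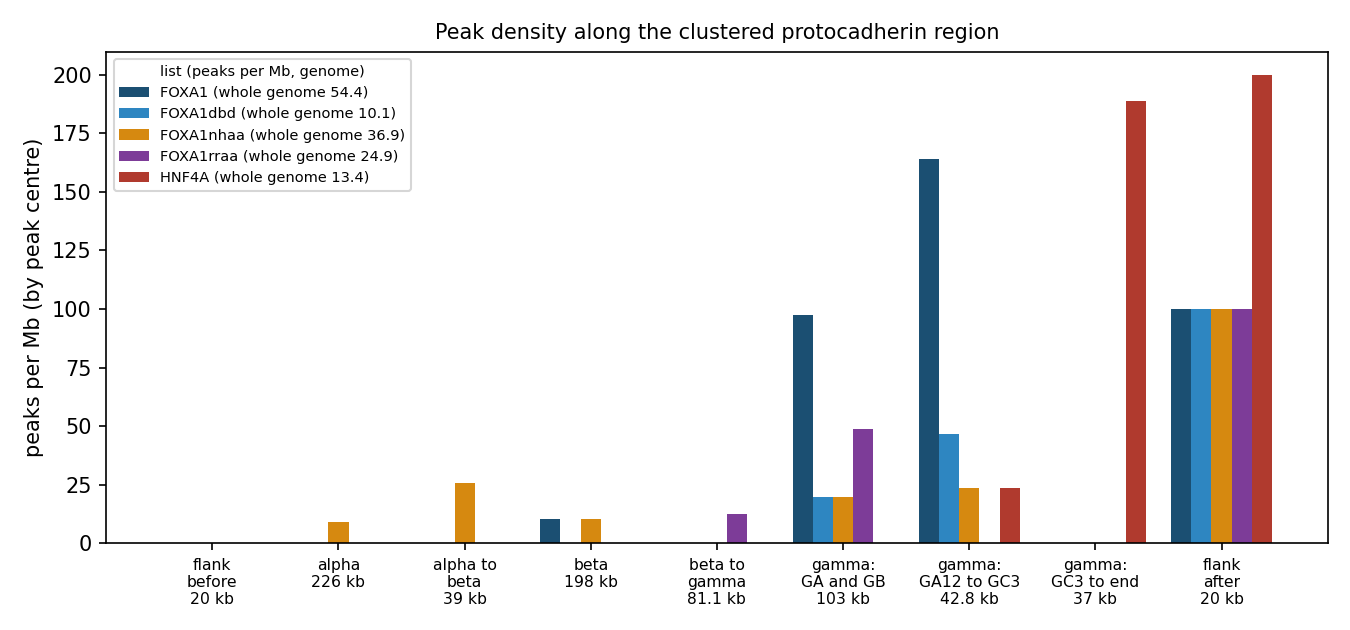
Peaks per Mb in 9 consecutive parts of the region, counted by peak centre, for the 5 lists (bars). The legend gives each list's density over the whole genome. FOXA1 is highest between PCDHGA12 and PCDHGC3 at 164 per Mb and absent from PCDHGC3 to the constant exons, where HNF4A reaches 189 per Mb. A FOXA1 peak whose centre lies just beyond the end of the region is not drawn.

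At the gene starts, FOXA1 peaks were as frequent as at protein-coding genes in general. A peak within 1000 bp of the start was found for 6 of the 53 genes, or 11.3% (5.29 to 22.6), against 9.42% of all protein-coding genes. These were PCDHB16 and the gamma genes PCDHGA3, PCDHGB4, PCDHGA9, PCDHGB6 and PCDHGA10. By cluster the counts were 0 of 15 alpha genes, which allows up to 20.4%, 1 of 16 beta genes and 5 of 22 gamma genes, or 22.7% (10.1 to 43.4). The intervals of the 3 clusters overlap.

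All of these FOXA1 peaks lie upstream of the start, and the distance is counted to the nearest edge of the peak. The peak at PCDHB16 ends 114 bp before the start and has a score of 75. The peak at PCDHGB4, printed above, ends 164 bp before the start with a score of 133, close to the middle of the FOXA1 list. The highest FOXA1 peak of the region, with a score of 424, at chr5:140721843-140722491, ends 905 bp before PCDHGA3 and overlaps an annotated UTR of PCDHGA2. PCDHGA9 had a peak 571 bp upstream with a score of 141. PCDHGB6 had one 954 bp upstream with a score of 51. Both lie in the spacer before their gene and outside coding sequence and UTRs. At PCDHGA10 there were 2 peaks, 392 bp upstream with a score of 28 and 693 bp upstream with a score of 87, both in a UTR of PCDHGB6. The score of 28 is among the lowest of the list. A further peak, with a score of 61, lies 324 bp before the first exon of the canonical PCDHGA8 transcript, but 1983 bp after the start of the gene record. It is not in the count of 6. Counting from first exons makes it 7.

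FOXA1dbd had no peak at the start of any of the 53 genes, against 2.08% of all protein-coding genes, and 0 of 53 allows up to 6.76%. FOXA1nhaa had 2, at PCDHGA3 (997 bp upstream, score 81) and at PCDHGB6 (889 bp upstream, score 183), against 6.17%. Both start sites also had a FOXA1 peak. The FOXA1rraa list had the same 2 genes, against 4.03%, but both peaks are FOXA1nhaa rows and none was left without them. At PCDHGB6 the FOXA1nhaa peak stood above 90.2% of its list and the FOXA1 peak above 7.80% of its own. At PCDHGA3 the order was turned, with the FOXA1 peak above 97.6% of its list and the FOXA1nhaa peak above 42.1%. The ranks come from lists of different lengths and show no change in binding.

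HNF4A stood apart at gene starts. It had a peak at the start of 40.1% of all protein-coding genes but of only 1 of the 53 clustered protocadherins, or 1.89% (0.334 to 9.94). That gene was PCDHGC3, a C-type member, with peaks that begin 8, 306 and 997 bp after the start, the first in its UTR and the others in its coding sequence. Their scores were 52, 117 and 83 and their fold enrichments 4.36, 6.63 and 5.56. PCDHGC4, a C-type gene known for a role in neuronal survival, had an HNF4A peak 1216 bp after its start, in its coding sequence, with a score of 137. Before PCDHGC5 lay the highest HNF4A peak of the region, printed above, scored 225 with a 9.74-fold enrichment, whose end is 1015 bp from the start and so just outside the 1000 bp limit. Each of the 3 PCDHGC genes therefore had an HNF4A peak within 2500 bp of its start, and none of the other 50 genes did.

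Starts with less and with more GC were also counted apart. Over the 1000 bp on either side, GC content had a median of 43.0% at the clustered protocadherins and 55.0% at all protein-coding genes. Of the 53 starts, 48 were below 50% GC, and none of these had an HNF4A peak, against 15.3% of the 5781 protein-coding genes below 50%. Among the 5 starts at or above 50% GC, PCDHGC3 was the one with an HNF4A peak, where 50.1% of 14382 genes had one. FOXA1 went the other way, with peaks at 6 of the 48 starts below 50% GC, against 16.5% of genes, and at 0 of 5 above it, against 6.59%. The part of base composition in these counts was not tested beyond this split.

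**Figure D3:**
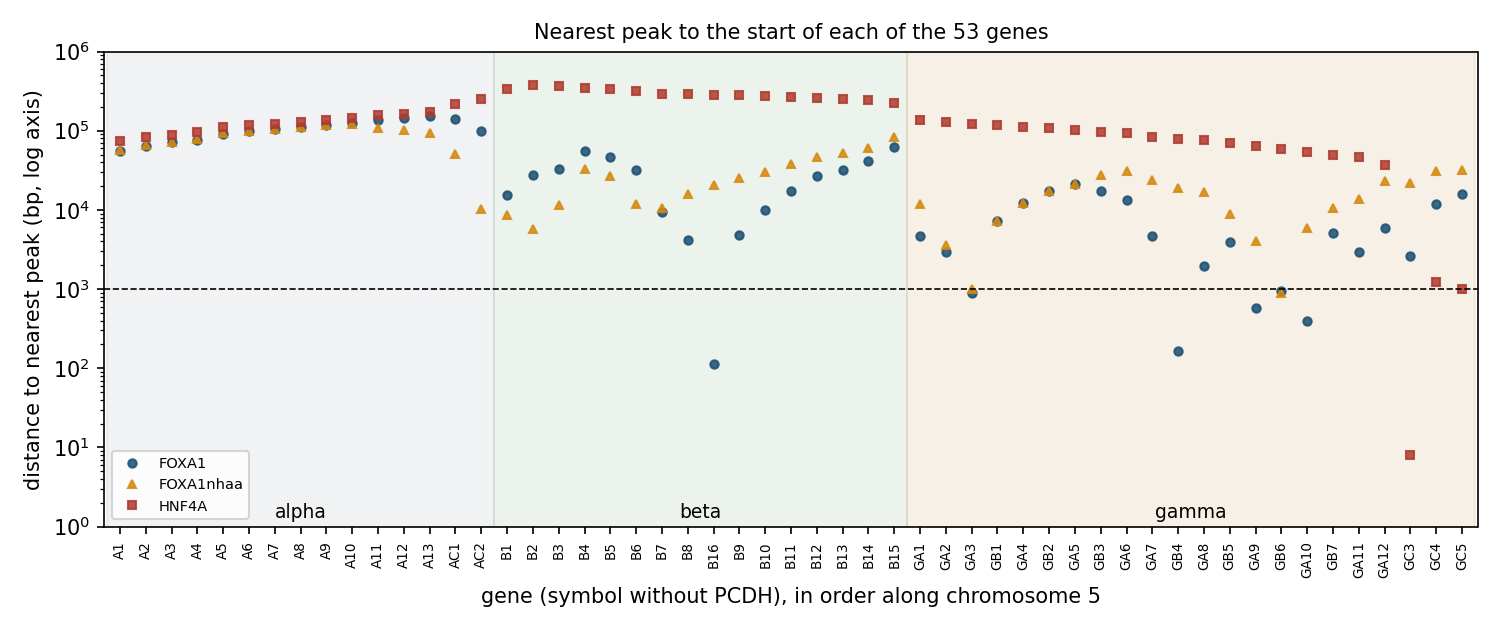
Distance in bp (log axis) from each of the 53 gene starts, in chromosome order, to the nearest peak of FOXA1 (circles), FOXA1nhaa (triangles) and HNF4A (squares). The dashed line marks 1000 bp. FOXA1 points fall below the line at PCDHB16 and at 5 gamma genes, and HNF4A comes near the starts only at the 3 PCDHGC genes.

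Counting any list, 7 of the 53 genes, or 13.2% (6.55 to 24.8), had a peak at the start and 46 had none, against 46.3% of all protein-coding genes with one. HNF4A, with 40.1% of all genes, makes up most of that share. The 7 were PCDHB16, PCDHGA3, PCDHGB4, PCDHGA9, PCDHGB6, PCDHGA10 and PCDHGC3. All 15 alpha genes, 15 of the 16 beta genes and 16 of the 22 gamma genes were without one.

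The variable first exons, taken from 1 transcript per gene, were free of peaks of the 4 FOXA1 lists. That was the canonical transcript, or the protein-coding transcript of longest span where none is marked. First exons of other transcripts were not counted. None of the 53 first exons overlapped a FOXA1, FOXA1dbd, FOXA1nhaa or FOXA1rraa peak, against 1.29%, 0.303%, 0.942% and 0.650% of the first exons of all protein-coding genes. The protocadherin exons are much longer, with a median of 2599 bp against 185 bp, so the 0 was counted over more sequence per gene. HNF4A peaks lay in 2 of the first exons, with 3 peaks in PCDHGC3 and 1 in PCDHGC4, against 28.6% of all genes.

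In the PCDHGA and PCDHGB part, these first exons make up 49.4 of 103 kb, or 48.1%, yet all 10 FOXA1 peaks lay in the spacers between them. The spacers are not free of exons, since they hold annotated UTR sequence too. Several of the FOXA1 peaks were centred in such a UTR, of PCDHGA2, PCDHGA8, PCDHGB4, PCDHGB6 or PCDHGA11. Of the 18 spacers, 8 held a FOXA1 peak and 10 did not. The spacers before PCDHGA3 and before PCDHGA10 held 2 peaks each. No FOXA1 peak lay between the first exons of PCDHGA3 and PCDHGA7, a run of 7 spacers in a row, nor in the spacers before PCDHGB5, PCDHGB7 and PCDHGA11. Spacers and exons differ in base composition. The spacers had a median GC content of 34.7% (32.7 to 40.6%), and the gamma first exons 53.8% (51.7 to 56.7%).

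Peaks of the region followed the base composition of their own lists. The 22 FOXA1 peaks had a median GC content of 30.9%, against 32.8% over the whole list, and ranged from 23.1% to 50.9%. The medians were 29.9% against 33.7% for FOXA1dbd, 36.2% against 34.6% for FOXA1nhaa and 29.7% against 33.4% for FOXA1rraa. The 12 HNF4A peaks had 54.6%, against 52.0% over the list. The medians of FOXA1, FOXA1dbd and FOXA1rraa peaks lay below the GC content of every PCDHGA and PCDHGB spacer, and that of FOXA1nhaa peaks lay within the range of the spacers. The median of the HNF4A peaks lay within the range of the gamma first exons. These medians are over all peaks of the region, including those outside the spacers and first exons. The part of GC content in where peaks lay was not tested.

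**Figure D4:**
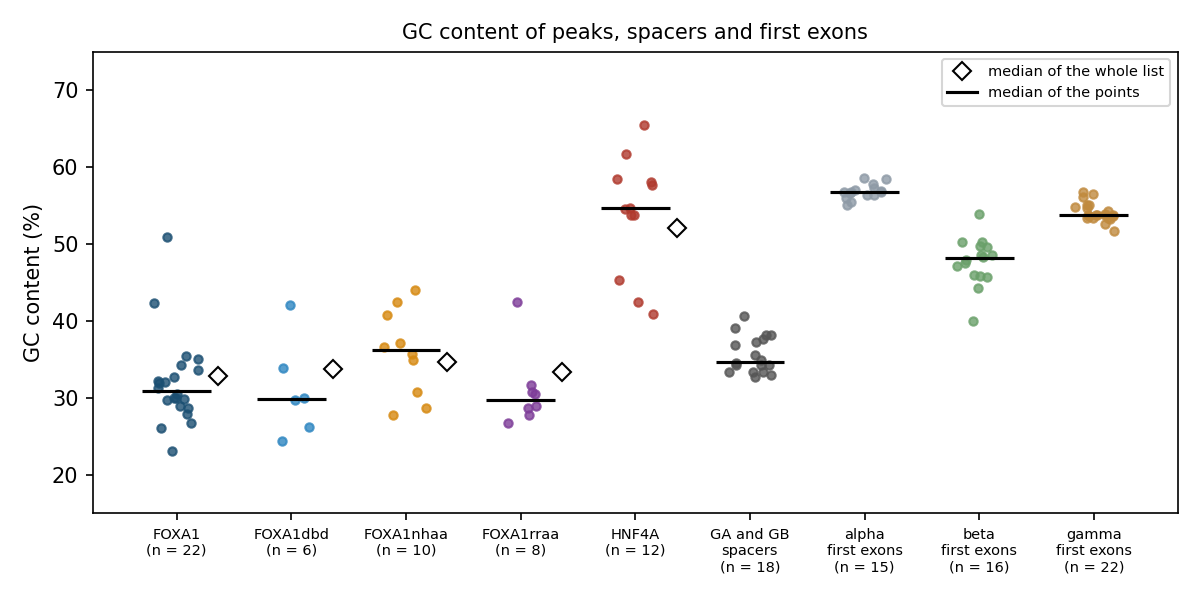
GC content in percent of each peak of the region by list, of the 18 spacers between PCDHGA and PCDHGB first exons, and of the first exons of each cluster (points, spread sideways for visibility). Bars are medians of the points and diamonds the median of the whole list. The FOXA1 median, 30.9%, is below the lowest spacer, 32.7%, and the HNF4A median, 54.6%, is within the range of the gamma exons, 51.7% to 56.7%.

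The first exons are alike in ways that can affect mapping. Alpha first exons had a median GC content of 56.7%, beta 48.1% and gamma 53.8%. Of the 50-base stretches of a first exon, a median of 10.8% occurred elsewhere in the region, with a range from 0% to 47.0%. The highest share was in PCDHB8. The 5 C-type first exons, PCDHAC1, PCDHAC2, PCDHGC3, PCDHGC4 and PCDHGC5, had 0%. Short reads from a repeated stretch can be assigned to several genes, and how such reads were treated is not given in the sources used here. The part of repeated sequence in the empty first exons was not tested.

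Forkhead cores were common around the starts. In the 1000 bp on either side of the start, 34 of the 53 genes (64.2%) held TATTTAC or TGTTTAC on either strand, against 33.1% of all protein-coding genes, whose starts are richer in GC. The share was 10 of 15 in alpha, 8 of 16 in beta and 16 of 22 in gamma. The alpha genes thus held the core at 66.7% of their starts, where none had a FOXA1 peak. A core of the HNF4 family, CAAAGTCCA on either strand, was present at 2 of the 53 starts (3.77%) and at 2.3% of all starts. A CTCF core motif, on either strand, was present at 9 starts (17.0%, against 11.5%) and in 10 first exons (18.9%, against 2.74% of the much shorter first exons of all genes), 5 of them alpha and 5 gamma. These are matches of letters and not sites of binding.

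In the central 200 bp of the peaks, around the summit where the list gives one inside the row and otherwise around the midpoint, the forkhead core was found in 5 of the 22 FOXA1 peaks, or 22.7% (10.1 to 43.4), against 18.2% of the whole list. It was found in 2 of 6 FOXA1dbd peaks, or 33.3% (9.68 to 70.0), against 22.1%. FOXA1nhaa had 1 of 10 against 13.6%, FOXA1rraa 1 of 8 against 20% and HNF4A 1 of 12 against 3.25%. All the intervals include the share of the whole list. A control with the letters in reverse order, CATTTAT or CATTTGT, was in 4 of the 22 FOXA1 peaks, or 18.2%. Over the whole FOXA1 list it was in 19.8%, so the forkhead core was no more frequent than its control. The control was as frequent as the forkhead core in the region's FOXA1nhaa and FOXA1rraa peaks and absent from its FOXA1dbd and HNF4A peaks. Among FOXA1 peaks near a start, only the one before PCDHGB6 held the forkhead core, as GTAAATA, and the FOXA1nhaa peak there holds the same 7 bases. The pair of cores shown above is in both the FOXA1 and the FOXA1dbd peak at that position. FOXA1 scored it 44, above 4.40% of its list, while FOXA1dbd scored it 129, above 91.9% of its list. The HNF4 core was in none of the 12 HNF4A peaks, against 0.992% of its list.

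Of the 22 FOXA1 peaks, 12 were overlapped by no other list, which is 54.5% against 41.1% over the genome. FOXA1 rows repeated in the FOXA1rraa list count as overlapped by construction, in the region and in the genome. The peak at chr5:140721291-140721515 was shared only through such a row. Scores of the 12 ran from 28 to 265 with a median of 122, and the 10 shared peaks ran from 44 to 424 with a median of 137, so both kinds spanned low and high scores. FOXA1dbd overlapped 6 of the 22, or 27.3% (13.2 to 48.2), against 17.3% in the genome. FOXA1nhaa overlapped 5, or 22.7% (10.1 to 43.4), against 39.7%. FOXA1rraa overlapped 7, or 31.8% (16.4 to 52.7), against 39.9%, and HNF4A 2, or 9.09% (2.53 to 27.8), against 1.68%. Without FOXA1 rows FOXA1rraa overlapped 18.2%. The intervals for FOXA1dbd, FOXA1nhaa and FOXA1rraa include the genome's share, and that for HNF4A lies just above it on a count of 2. A single shared base pair sufficed for an overlap.

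Seen from the other lists, all 6 FOXA1dbd peaks were overlapped by FOXA1, against 96.2% in the genome. For FOXA1nhaa it was 5 of 10 against 58.4%, for FOXA1rraa 7 of 8 against 86.8% and for HNF4A 2 of 12 against 6.76%. The 5 FOXA1nhaa peaks that FOXA1 did not overlap are those of the alpha and beta clusters and of the space between them, all before the gamma cluster. The 5 that it did overlap lie in the gamma cluster and its flank.

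The 2 sites shared by at least 4 lists lie after the gamma cluster, within the neighbouring gene DIAPH1, which encodes an actin-nucleating formin, and in no coding sequence or UTR. The site in all 5 lists spans chr5:140900796-140901089. Its scores were 109 for FOXA1, 132 for FOXA1dbd, 111 for HNF4A and 66 for FOXA1nhaa, and the FOXA1rraa peak is the FOXA1nhaa row. It is the highest FOXA1dbd peak of the region, enriched 8.05-fold, above 92.7% of that list, while for FOXA1 it stood above 42.0% of the list. The site in 4 lists spans chr5:140912179-140913027, crosses the end of the region, and had scores of 213 for FOXA1, 110 for FOXA1dbd and 72 for FOXA1nhaa. Its FOXA1rraa peak is again the FOXA1nhaa row. Inside the clusters, the sites with the most lists had 3. The site at chr5:140846401-140846770, 8744 bp before PCDHGC3, was in the FOXA1, FOXA1dbd and HNF4A lists, and is the only site of a cluster where HNF4A met a FOXA1 peak.

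The nearest peaks outside the region show how far its edges are from other sites. The FOXA1 list had its next peak 36164 bp before the region, with a score of 82, and 54578 bp after it, with a score of 399. For HNF4A they lay 54612 bp before, with a score of 90, and 24669 bp after, with a score of 52.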

How the data were processed

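Peaks came from HALO ChIP-seq of FOXA1, FOXA1dbd, FOXA1nhaa, FOXA1rraa and HNF4A in BJ cells, with 1 deposited list per protein and a down-sampled FOXA1 list. The deposited FOXA1 lists hold a score per peak. The other deposited lists hold the authors' score, fold enrichment (a ratio), −log10 p-value and −log10 q-value. The submitters' processing notes name Bowtie2 2.3.4.1, Picard, GATK 4.2.6.0, bedtools 2.27.1, MACS2 2.2.7.1 and deepTools 3.5.0, with no role stated. The use of inputs is not given in the sources used here. Groups were taken from sample titles, and the 6 samples of histone H2B or its inputs were not used here.

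Genes came from GENCODE 44 lifted to GRCh37, the build of the lists (hg19), and a gene's start was that of its record. Repeated rows counted once, and the 28850 FOXA1dbd rows gave 28831 peaks. Shares carry Wilson intervals and densities exact Poisson intervals at 95%. Windows with more than 10% unknown bases were left out. Python 3.11.15, pandas 2.3.3, scipy 1.17.1 and pysam 0.24.0 were used, and the code was tested on simulated data.

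Named were every gene of the clusters with a peak within 1000 bp of its start, the highest peak of each list in each cluster and in the region, and sites in at least 4 lists. Other peaks, PCDHGA8, PCDHGC4, PCDHGC5, PCDHB8 and DIAPH1 were named after their values were seen. The genes and lists were chosen with earlier results of these data known. Alternatives were score cutoffs, list size, flanks, start windows, overlap rules, core windows and shared rows.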

Additional observations from a re-analysis of the deposited data

How the results depend on the processing

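Of 136 values recomputed under other settings, 103 stayed within set limits and 33 moved. For counts the limit was a set factor, and for shares and ratios it was the interval of the reported value. These intervals are wide. The HNF4A density ratio went from 1.17 to 0.822 without flanks, and that of FOXA1dbd from 0.776 to 1.03 in the upper 50% of the list. Neither counts as moved. When only the upper 50% of each list by score was kept, the region held 11 FOXA1, 3 FOXA1nhaa, 4 FOXA1rraa and 7 HNF4A peaks, start peaks were left at 3 genes for FOXA1, 1 for FOXA1nhaa and 1 for FOXA1rraa, 50% of FOXA1dbd peaks were overlapped by FOXA1, and overlaps of FOXA1 with FOXA1nhaa and HNF4A came to 0% in either direction. The down-sampled FOXA1 list had 8 peaks and overlapped 33.3% of FOXA1dbd, 10.0% of FOXA1nhaa, 25% of FOXA1rraa and 0% of HNF4A peaks, and 0% of its own peaks were overlapped by HNF4A. Flanks of 100 kb gave 17 FOXA1nhaa and 15 FOXA1rraa peaks. Without FOXA1 rows 5 FOXA1rraa peaks remained, and without FOXA1nhaa rows 4, with 0 genes having a start peak. A start window of 500 bp gave 3 genes for FOXA1 and 0 for FOXA1nhaa and FOXA1rraa, 2500 bp gave 3 for HNF4A, and peak centres inside the window gave 0 for FOXA1nhaa and FOXA1rraa. With reversed cores 0% of FOXA1dbd and 0% of HNF4A peaks held one. For FOXA1, FOXA1nhaa and FOXA1rraa the reversed core did not move the value, at 18.2%, 10.0% and 12.5%. The forkhead core of the HNF4A list was 0% in the central 100 bp and around midpoints. The cause of these moves was not tested, apart from the fewer peaks or narrower windows the settings leave by construction. The ratios of peak density to the genome stayed within their intervals under every setting tried, but the count of the down-sampled FOXA1 list allows a ratio of 1. Peak centres in the region and first exons of canonical transcripts as starts were added after seeing the data.

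No paired analysis was possible because each protein has 1 peak list, so no replicate was left out either. The lists give no read counts, so an absent peak is not an absence of binding, and whether libraries were pooled is not given in the sources used here. Differences between lists of 28831 to 155652 peaks also carry list size, whose part was not tested.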

Other observations

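Genes of related function were counted in the same way. Over all protein-coding genes, a peak within 1000 bp of the start was found for 9.42% in the FOXA1 list, 2.08% in FOXA1dbd, 6.17% in FOXA1nhaa, 4.03% in FOXA1rraa and 40.1% in HNF4A. At these shares, counts of 0 or 1 in short lists of genes are ordinary for the 4 FOXA1 lists. Of 12 protocadherin genes outside the clusters, none had a peak within 1000 bp of the start in the 4 FOXA1 lists, and 3 had one in the HNF4A list: PCDH12, an endothelial protocadherin, with a score of 291, PCDH7 with 176 and PCDH9 with 94. Of 12 genes for proteins that act on the clusters, HNF4A peaks lay at 8: CTCF, the cohesin genes RAD21 and SMC3, the cohesin loader NIPBL, the cohesin release factor WAPL, WIZ, the DNA methyltransferase gene DNMT3B and SMCHD1, a silencing factor. The highest score, 603, with a fold enrichment of 17.2, was at CTCF. FOXA1 peaks lay at NIPBL and RAD21, with scores of 312 and 328. FOXA1nhaa and FOXA1rraa had the same row at NIPBL, with a score of 106.

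The WAVE complex, an actin regulator that clustered protocadherins can recruit through their cytoplasmic part, had HNF4A peaks at 6 of its 9 genes (BRK1, CYFIP1, NCKAP1, WASF1, WASF2 and WASF3), with top scores from 91 at WASF1 to 246 at WASF3. None of the 9 had a peak of the 4 FOXA1 lists, which at the shares over all genes says nothing particular of them. All these counts are descriptions, and no enrichment was computed.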
